A study of Mus musculus with 26 samples.

Results

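Cdh1, Cdh2, Epcam, Vim, Snai1, Snai2, Zeb1, Zeb2 and Cldn6 are the 9 genes by which a switch between epithelial and mesenchymal states is commonly read. They were taken by name from the gene tables of mouse embryonic stem cells (mESCs), in which all 9 were found among 24015 genes. Their mRNA was followed in 15 RNA-seq libraries of 7 conditions, all from a mESC line with a Stella:GFP reporter. Wild-type (wt) cells were profiled in 2i+LIF medium (2 libraries), which contains inhibitors of MEK and of GSK3beta, or after 5 days in serum+LIF without feeder cells (1 library), and all other lines were profiled in serum+LIF. Prdm14-/- cells were 2 clones made with CRISPR-Cas9 (G6 and F10). Both clones were also reconstituted with FLAG- and HA-tagged Prdm14 (FH-Prdm14, 2 libraries) or with tagged Prdm14 that carries the E294K substitution at the surface that contacts Mtgr1 (E294K, 2 libraries). Mtgr1-/- cells were 3 clones (A3, C1 and C3), each of which was also reconstituted with tagged Mtgr1 (FH-Mtgr1, 3 libraries). Prdm14 is a DNA-binding regulator of pluripotency and germ cell formation, and Mtgr1, encoded by Cbfa2t2, is a corepressor of the ETO family that binds to it.

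In an epithelial sheet, E-cadherin (Cdh1) joins neighbouring cells at adherens junctions, claudins such as Cldn6 seal tight junctions, and Epcam is an adhesion molecule of simple epithelia. During an epithelial to mesenchymal transition, the zinc finger repressors Snai1, Snai2, Zeb1 and Zeb2 bind E-box sequences in the promoters of such genes, and cells turn to N-cadherin (Cdh2) and to the intermediate filament vimentin (Vim). mESCs form compact colonies held together by E-cadherin and are mostly of the epithelial kind, although they also express vimentin. Cells that leave the pluripotent state towards mesoderm or endoderm pass through such a transition in the gastrulating embryo.

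Each library held between 10668572 and 21218414 reads on genes (median 13793727), as computed back from RPKM (reads per kilobase of gene model, scaled to the reads of the library). Pou5f1, Nanog and the other 4 markers of pluripotent cells were at 1 RPKM or more in every library, and their summed level was 1267 to 1592 RPKM in Mtgr1-/- cells and 1625 to 2539 RPKM in the other conditions. Prdm14 was at 79.9 to 116 RPKM in the FH-Prdm14 and E294K lines, far above the 2.77 RPKM of the wt serum+LIF library. In Prdm14-/- cells, it was at 1.96 and 3.61 RPKM, and the mRNA level of the edited gene therefore does not separate them from the wild type. Cbfa2t2 was at 18.0 to 19.9 RPKM in Mtgr1-/- and at 25.5 to 28.0 RPKM in FH-Mtgr1 cells, but also at 16.6 and 16.8 RPKM in Prdm14-/- cells, and it was at 40.7 RPKM in the wt serum+LIF library, so that its mRNA level does not mark the Mtgr1 knockout alone. Clone C3 stood apart from the other clones of its conditions: the chi-square per degree of freedom between libraries was 39.9 and 43.9 for its pairs in Mtgr1-/- cells against 6.61 for A3 with C1, and 20.4 and 26.0 in FH-Mtgr1 cells against 8.90. Counts of the 9 genes that passed the test are therefore also given without both C3 libraries, which was decided on only once the libraries had been compared. The 2 wt 2i+LIF libraries differed still more (64.5).

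The adhesion genes of epithelia were abundant throughout, and their mesenchymal counterpart was scarce. Cdh1 (chr8:109127251-109194146, forward strand, mm9) was at 153 RPKM in wt serum+LIF cells and at 173 and 202 RPKM in 2i+LIF. It was at 177 and 169 RPKM in Prdm14-/- clones G6 and F10, at 92.6 and 90.7 RPKM in their FH-Prdm14 derivatives and at 150 and 148 RPKM in their E294K derivatives. In Mtgr1-/- clones A3, C1 and C3, Cdh1 was at 295, 284 and 231 RPKM, and in their FH-Mtgr1 derivatives at 177, 211 and 102 RPKM. The 3 Mtgr1-/- libraries were thus the highest of the 15, and both FH-Prdm14 libraries the lowest. In order of mean level, 2i+LIF overlapped with Prdm14-/- and Prdm14-/- with FH-Mtgr1, while the wt serum+LIF library and the E294K pair below it were set apart from the next lower condition.

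Epcam (chr17:88035319-88050446, forward strand, mm9) was at 146 RPKM in wt serum+LIF cells and at 31.4 and 52.4 RPKM in 2i+LIF. It was at 198 and 196 RPKM in Prdm14-/- clones G6 and F10, at 88.0 and 91.3 RPKM in FH-Prdm14 and at 118 and 123 RPKM in E294K cells. In Mtgr1-/- clones A3, C1 and C3, it was at 119, 118.5 and 142 RPKM, and in FH-Mtgr1 cells at 236, 225 and 217 RPKM. Epcam was therefore highest in the Mtgr1 rescue lines and, among serum cultures, lowest in the Prdm14 rescue lines, while the single wt serum library lay between these. Only Mtgr1-/- and E294K cells overlapped.

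Cldn6 (chr17:23816332-23819413, forward strand, mm9), a claudin of embryonic epithelia, was at 94.2 RPKM in wt serum+LIF cells and at 17.5 and 29.4 RPKM in 2i+LIF. It was at 255 and 243 RPKM in Prdm14-/- clones G6 and F10, at 66.0 and 58.7 RPKM in FH-Prdm14 and at 99.6 and 105 RPKM in E294K cells. In Mtgr1-/- clones A3, C1 and C3, it was at 186, 189 and 260 RPKM, and in FH-Mtgr1 cells at 116.5, 106.5 and 97.3 RPKM. All 5 knockout libraries lay above all 10 others, and both 2i+LIF libraries lay below all others. The 2 knockouts overlapped, as did FH-Mtgr1 and E294K.

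**Figure D1:**
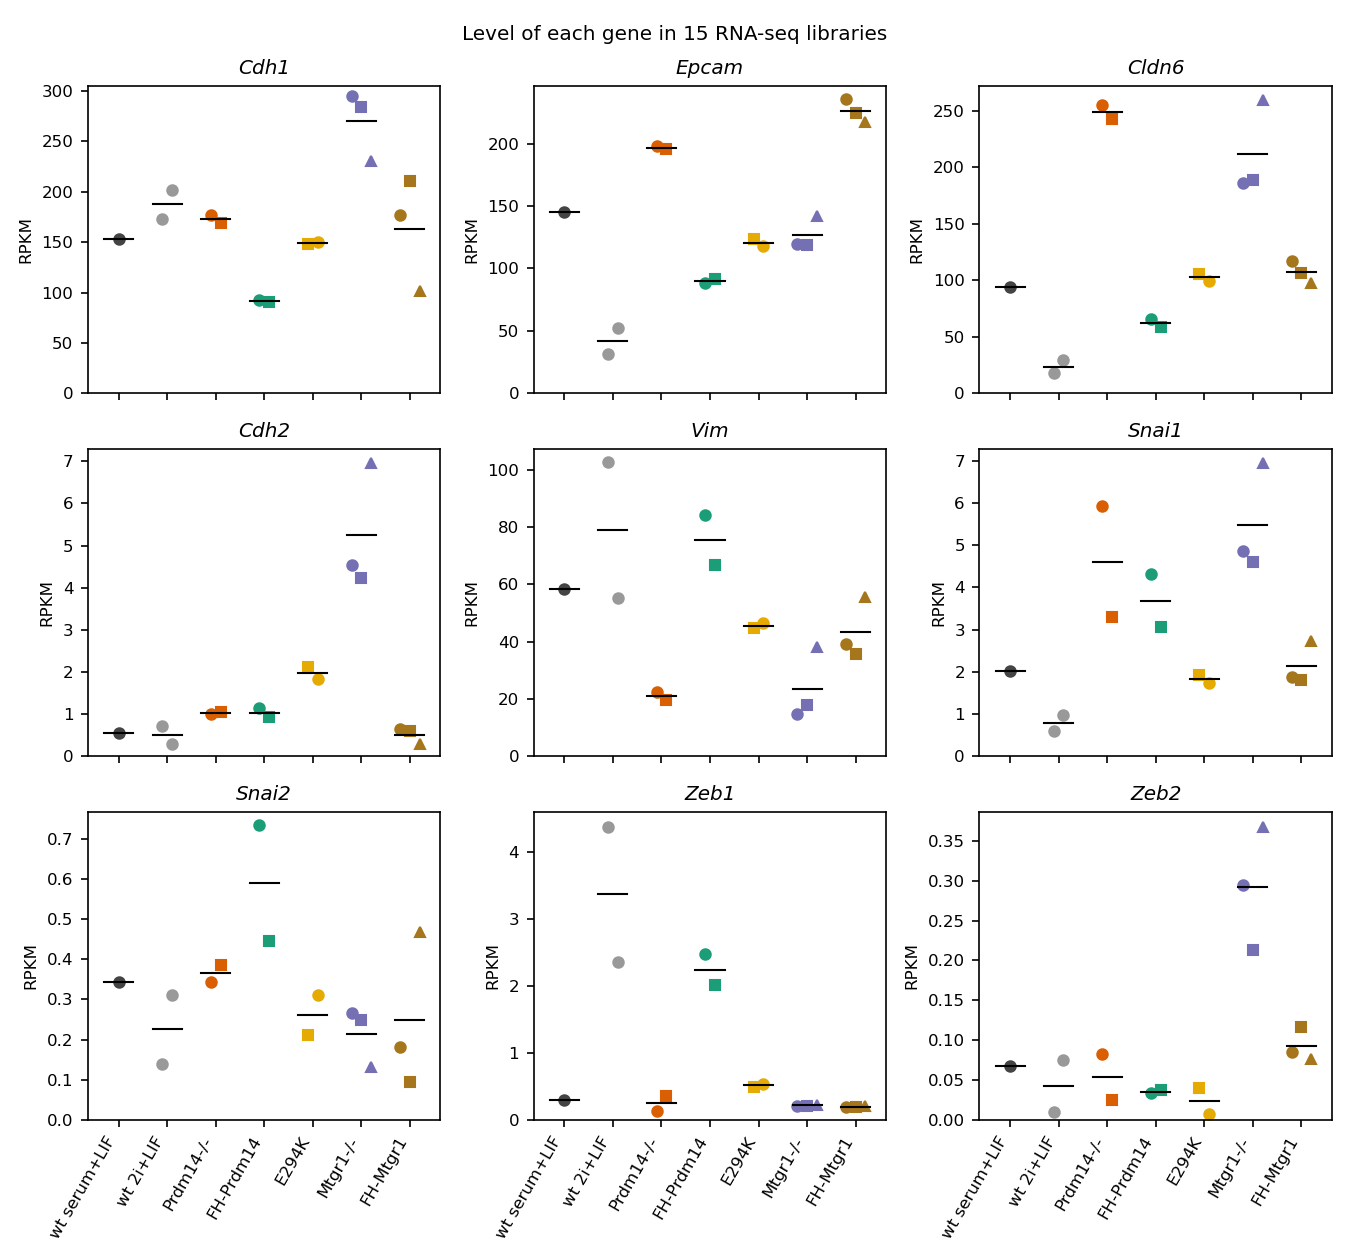
Level in RPKM (vertical axes, linear from 0, each gene with its own scale) of the 9 genes in 15 libraries, grouped by condition; circles mark clones G6 and A3 and the wt libraries, squares mark F10 and C1, triangles mark C3, and black lines are means. Cdh1, Epcam and Cldn6 reach 295, 236 and 260 RPKM, whereas Cdh2, Snai1, Snai2, Zeb1 and Zeb2 stay below 7 RPKM, and Cdh2 is highest in the 3 Mtgr1-/- libraries.

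The upstream sequences of these genes can be read for the E-box through which the Snail and Zeb repressors act. Sequences were taken from RefSeq (GRCm38.p6, a later build than that of the read counts) as the 250 bases before an annotated start, in which CACCTG and its reverse complement CAGGTG were searched. Such a match was present in 17.2% of 32851 promoters, and the looser CANNTG, which contains it, in 66.2%. The 3 promoters that hold a match are shown 5' to 3' on the gene's strand, because Epcam and Cldn6 are adhesion genes and Snai1 is itself a repressor of this kind, and capitals mark the match. That of Epcam (chr17:87635729-87635978, forward) holds 2 matches, which begin at -187 and -19 from the start, that of Cldn6 (chr17:23679115-23679364, forward) 1 at -93 and that of Snai1 (chr2:167537945-167538194, forward) 1 at -126.
Epcam: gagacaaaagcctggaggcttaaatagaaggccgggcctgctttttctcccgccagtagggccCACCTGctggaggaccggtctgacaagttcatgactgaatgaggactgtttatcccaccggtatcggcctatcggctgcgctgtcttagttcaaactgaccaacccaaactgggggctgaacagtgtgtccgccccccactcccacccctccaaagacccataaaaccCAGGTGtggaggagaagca
Cldn6: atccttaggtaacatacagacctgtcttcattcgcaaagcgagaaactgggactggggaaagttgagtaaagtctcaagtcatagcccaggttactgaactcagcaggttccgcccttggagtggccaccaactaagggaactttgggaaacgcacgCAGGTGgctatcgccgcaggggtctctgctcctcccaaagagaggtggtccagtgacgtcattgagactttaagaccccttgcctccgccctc
Snai1: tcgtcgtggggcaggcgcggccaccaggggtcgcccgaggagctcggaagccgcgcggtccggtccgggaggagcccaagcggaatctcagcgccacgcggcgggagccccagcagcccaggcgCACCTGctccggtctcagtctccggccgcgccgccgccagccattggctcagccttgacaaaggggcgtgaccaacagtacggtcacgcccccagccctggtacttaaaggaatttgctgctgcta
The promoter of Vim and the 4 starts listed for Zeb2 hold no match of either kind within the same window, which says nothing about binding elsewhere. Cdh1, Snai2 and the other 2 genes had no entry in the table. A match of 6 letters is a description of the sequence only.

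Compared with these, N-cadherin was low, although it was the gene that separated Mtgr1-/- cells most clearly. Cdh2 (reverse strand of chromosome 18, 16747386 to 16967755, mm9) was at 0.556 RPKM in wt serum+LIF cells and at 0.726 and 0.286 RPKM in 2i+LIF. It was at 1.00 and 1.06 RPKM in Prdm14-/- clones G6 and F10, at 1.14 and 0.938 RPKM in FH-Prdm14 and at 1.84 and 2.11 RPKM in E294K cells. In Mtgr1-/- clones A3, C1 and C3, Cdh2 was at 4.54, 4.23 and 6.95 RPKM (435, 355 and 366 reads), and in FH-Mtgr1 cells at 0.655, 0.599 and 0.287 RPKM (42, 59 and 17 reads). The 3 Mtgr1-/- libraries lay above all others, with both E294K libraries next in order. Even there, Cdh2 did not approach Cdh1, which made up 97.1% to 98.5% of the summed RPKM of both cadherins in Mtgr1-/- libraries and 98.6% to 99.9% elsewhere. The ratio of Cdh1 to Cdh2 was 33.2 to 67.2 in Mtgr1-/- cells and 271 to 354 in their rescue lines.

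Vim (chr2:13495554-13504453, forward strand, mm9) went the other way from most adhesion genes. It was at 58.3 RPKM in wt serum+LIF cells and at 103 and 55.2 RPKM in 2i+LIF. In Prdm14-/- clones G6 and F10, it was at 22.6 and 19.8 RPKM, in FH-Prdm14 at 84.3 and 66.7 RPKM and in E294K cells at 46.4 and 44.8 RPKM. Mtgr1-/- clones A3, C1 and C3 had 14.8, 17.8 and 38.0 RPKM, and their FH-Mtgr1 derivatives had 39.3, 35.9 and 55.5 RPKM. Clone C3 was the highest of its group both with and without Mtgr1, and its Mtgr1-/- library overlapped with the rescue lines of the other clones. Within each of the 5 clones, however, Vim was lower in the knockout than in its own rescue line, with ratios of 0.268 and 0.297 in G6 and F10 and of 0.378, 0.497 and 0.685 in A3, C1 and C3.

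Among the repressors, Snai1 (chr2:167363695-167368314, forward strand, mm9) had the highest level in every serum+LIF library. It was at 2.03 RPKM in wt serum+LIF cells, at 0.591 and 0.985 RPKM in 2i+LIF, at 5.93 and 3.29 RPKM in Prdm14-/- clones G6 and F10, at 4.32 and 3.05 RPKM in FH-Prdm14 and at 1.74 and 1.92 RPKM in E294K cells. In Mtgr1-/- clones A3, C1 and C3, it was at 4.86, 4.60 and 6.96 RPKM, and in FH-Mtgr1 cells at 1.87, 1.81 and 2.72 RPKM. Mtgr1-/- and FH-Mtgr1 cells did not overlap, whereas Prdm14-/- and FH-Prdm14 cells did.

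Zeb1 (forward strand of chromosome 18, 5591858 to 5775465, mm9) followed another division of the samples. It was at 4.38 and 2.35 RPKM in 2i+LIF and at 2.47 and 2.01 RPKM in FH-Prdm14 clones G6 and F10. E294K cells had 0.530 and 0.493 RPKM. All other libraries lay between 0.134 and 0.349 RPKM, with 9 to 27 reads each. Thus the 2 conditions with the most Zeb1 mRNA were 2i+LIF and the lines with wild-type Prdm14 added back, and the Zeb1 levels of the knockouts overlapped with the single wt serum library or lay below it.

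Snai2 (chr16:14705945-14709488, forward strand, mm9) and Zeb2 (chr2:44839154-44972915, reverse strand, mm9) were below 1 RPKM in every library. Snai2 ranged from 0.0937 to 0.735 RPKM (3 to 19 reads), with the FH-Prdm14 pair at 0.735 and 0.447 RPKM and FH-Mtgr1 C3 at 0.469 RPKM as the highest values. Zeb2 was at 0.295, 0.213 and 0.368 RPKM in Mtgr1-/- clones A3, C1 and C3 (57, 36 and 39 reads) and at most at 0.116 RPKM in all 12 other libraries (1 to 23 reads). The 3 Mtgr1-/- libraries were therefore the highest for Zeb2 as they were for Cdh2.

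The effect of Mtgr1 was read from the comparison of Mtgr1-/- cells with FH-Mtgr1 cells, which come from the same 3 clones. Here 4 of the 9 genes rose in the knockout, namely Cdh2, Snai1, Cldn6 and Cdh1, and 2 fell, namely Epcam and Vim. The test was limma on log2(RPKM + 0.5) with Benjamini-Hochberg adjustment over 13477 genes with at least 1 RPKM in at least 2 libraries, a filter that 7 of the 9 genes passed (all but Snai2 and Zeb2). Zeb1 passed it only through the 2i+LIF and FH-Prdm14 libraries, in which it is high. Its calls in later comparisons with either condition, and in the difference between the knockouts, are therefore no independent observation. By this test 52.3% of the genes tested were called in this comparison, 26.2% as higher and 26.1% as lower, beside 6 of the 7 genes tested here. Shares of all genes given for the later comparisons have the same base, so that at most 7 of the 9 genes could be counted beside them. Without both C3 libraries the count was again 6. On the log2(RPKM + 0.5) scale, which understates the change of low genes, Cdh2 rose by 2.49 (SE 0.23, limma adjusted p = 7e-06), Snai1 by 1.18 (SE 0.24, limma adjusted p = 0.00145), Cldn6 by 0.97 (SE 0.18, limma adjusted p = 0.000794) and Cdh1 by 0.78 (SE 0.21, limma adjusted p = 0.00823). Within clones, Cdh2 was 6.92, 7.06 and 24.2 times as high in RPKM in the knockouts A3, C1 and C3 as in their rescue lines.

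Epcam fell by 0.84 (SE 0.16, limma adjusted p = 0.000797), and Vim fell by 0.97 (SE 0.31, limma adjusted p = 0.0207). The call for Vim rested on single libraries: limma's adjusted p was 0.0918 without Mtgr1-/- A3, 0.0733 without Mtgr1-/- C1 and 0.0871 without FH-Mtgr1 C3. For Cdh1, Cdh2, Epcam, Snai1 and Cldn6, each alternative that kept the gene gave a call of the same direction. Zeb1 differed by 0.03 (95% interval -0.41 to 0.47, limma adjusted p = 0.907). In a fit without the filter, Zeb2 rose by 0.42 (SE 0.08, limma adjusted p = 0.00182), a value that ranged from 0.24 with a pseudocount of 1 to 1.55 with voom on the reads, and Snai2 differed by -0.04 (limma adjusted p = 0.914). The summed level of 7 mesoderm markers was 38.9 to 41.6 RPKM in Mtgr1-/- cells and 3.82 to 15.4 RPKM in the other conditions. Most of it was Hand1, at 33.7 to 36.1 RPKM in Mtgr1-/- and 1.87 to 3.31 RPKM in FH-Mtgr1 cells, while Mixl1, Mesp1, Tbx6 and Kdr were below 1 RPKM in all 3 Mtgr1-/- libraries. Of the 7 markers, 3 were tested, and 1 rose and 1 fell in Mtgr1-/- cells, beside 26.2% and 26.1% of all genes. Hand1 rose by 3.63 (limma adjusted p = 1.48e-05) and Tbx6 fell by 0.93 (limma adjusted p = 0.000418). Eomes differed by 0.08 (limma adjusted p = 0.716). Against FH-Prdm14, 1 rose and 0 fell in Prdm14-/- cells, beside 11.4% and 13.8% of all genes, namely Eomes (0.93, limma adjusted p = 0.0081). The part of these markers in the rise of Cdh2 and Snai1 was not tested. In such bulk samples, more cells of a type and more RNA per cell cannot be told apart.

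Against the single wt serum+LIF library, whose spread had to be taken from the other conditions, 4 of the 9 genes were called in Mtgr1-/- cells, beside 37.0% of all genes. Cdh2 rose by 2.41 (limma adjusted p = 0.000241), Snai1 by 1.22 (limma adjusted p = 0.0142, but 0.0859 with the clone as a block and the GC adjustment) and Cldn6 by 1.14 (limma adjusted p = 0.00448), and Vim fell by 1.41 (limma adjusted p = 0.0255, but 0.0592 without Mtgr1-/- A3 and 0.0591 without Mtgr1-/- C1). Cdh1 was higher by 0.81 (limma adjusted p = 0.0506), which came to 0.97 (limma adjusted p = 0.0175) with the clone as a block, to 0.92 (limma adjusted p = 0.0412) without Mtgr1-/- C3 and to 0.96 (limma adjusted p = 0.0206) with median-of-ratios scaling. Zeb1 differed by -0.16 (limma adjusted p = 0.691), and in the fit without the filter Zeb2 rose by 0.48 (limma adjusted p = 0.0093, or 0.0553 with the clone as a block) and Snai2 differed by -0.25 (limma adjusted p = 0.539). Epcam differed by -0.21 (95% interval -0.68 to 0.27, limma adjusted p = 0.49). Its fall against the rescue lines thus stood beside a level in those lines that was 0.63 above the wt library (limma adjusted p = 0.126). FH-Mtgr1 cells themselves gave 0 calls among the 9 genes, or at an unadjusted p below 0.05 only Epcam (unadjusted p = 0.0138 by limma), beside 2.74% of all genes. This comparison has 3 libraries against 1. Of the genes called, 40.2% were higher in Mtgr1-/- and 37.7% in FH-Mtgr1 cells than in wt, and with median-of-ratios scaling 52.0% and 55.3%, a shift of 0.13 and 0.11 in the median of all genes.

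The effect of Prdm14 was read in the same way from Prdm14-/- against FH-Prdm14 cells of clones G6 and F10. Cldn6, Epcam and Cdh1 rose and Zeb1 and Vim fell in the knockout. These are 5 of the 9 genes, beside 25.2% of all genes (11.4% higher and 13.8% lower), and again 5 without both C3 libraries. Cldn6 rose by 1.99 (SE 0.22, limma adjusted p = 8.38e-05), Epcam by 1.13 (SE 0.19, limma adjusted p = 0.00115) and Cdh1 by 0.91 (SE 0.26, limma adjusted p = 0.0221). Zeb1 fell by 1.90 (SE 0.25, limma adjusted p = 0.000226) and Vim fell by 1.80 (SE 0.38, limma adjusted p = 0.00489). As Zeb1 passed the filter only through the 2i+LIF and FH-Prdm14 libraries, its fall is no independent observation. Cdh2 differed by -0.01 (95% interval -0.61 to 0.60, limma adjusted p = 0.995) and Snai1 by 0.25 (95% interval -0.38 to 0.89, limma adjusted p = 0.569). Snai2 and Zeb2, in the fit without the filter, differed by -0.32 (limma adjusted p = 0.358) and 0.05 (limma adjusted p = 0.808). The call for Cdh1 was lost on leaving out any of the 4 libraries, with limma adjusted p of 0.119 without Prdm14-/- G6, 0.0623 without Prdm14-/- F10, 0.0929 without FH-Prdm14 G6 and 0.108 without FH-Prdm14 F10.

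Prdm14 exceeds its wild-type level in the rescue lines, and its part in these differences was not tested. For Cdh1, Epcam and Zeb1, the rescue lines lay further from wt serum+LIF than the knockout did. For Cldn6 and Vim the knockout lay further, while FH-Prdm14 cells differed from wt by -0.60 and 0.36. Against wt serum+LIF, Prdm14-/- cells had 2 of the 9 genes called, beside 25.4% of all genes, namely Cldn6, which rose by 1.40 (limma adjusted p = 0.00573), and Vim, which fell by 1.44 (limma adjusted p = 0.042, but 0.116 without Prdm14-/- G6 and 0.103 without Prdm14-/- F10). Cdh2 and Snai1 differed by 0.53 (limma adjusted p = 0.258) and 0.97 (limma adjusted p = 0.0655, or 0.0245 without Prdm14-/- F10 and 0.0357 with the clone as a block). For Cdh1, the difference from wt was 0.18 (95% interval -0.51 to 0.87, limma adjusted p = 0.7) in the knockout and -0.74 (95% interval -1.43 to -0.05, limma adjusted p = 0.135) in FH-Prdm14 cells. For Epcam, these values were 0.44 (limma adjusted p = 0.179) and -0.70 (limma adjusted p = 0.0678). Zeb1 differed from wt by -0.11 (limma adjusted p = 0.805) in the knockout and was higher by 1.78 (limma adjusted p = 0.00405) in FH-Prdm14 cells. Zeb1 was the 1 gene of the 9 called in FH-Prdm14 against wt serum+LIF cells, beside 12.5% of all genes. All these comparisons share the wt library, and those with the rescue lines share FH-Prdm14. The rise of Zeb1 in FH-Prdm14 cells is no independent observation, as it passed the filter only through these and the 2i+LIF libraries.

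Cells with the E294K protein, which have a comparable amount of Prdm14 mRNA, had mean levels between knockout and rescue for Cdh1, Epcam, Cldn6, Vim and Zeb1, above both for Cdh2 and below both for Snai1. Against FH-Prdm14 cells, 2 of the 9 genes were called, beside 19.5% of all genes. Zeb1 fell by 1.43 (SE 0.25, limma adjusted p = 0.00217) and Cldn6 rose by 0.71 (SE 0.22, limma adjusted p = 0.0397, or 0.0854 with the clone as a block). The call for Cldn6 was lost without any 1 of these libraries, with limma adjusted p of 0.119 and 0.196 without FH-Prdm14 G6 and F10 and 0.136 and 0.189 without E294K G6 and F10. Cdh1 differed by 0.70 (SE 0.26, limma adjusted p = 0.0773, or 0.0326 with the clone as a block) and Cdh2 by 0.69 (SE 0.28, limma adjusted p = 0.104). Epcam (0.43, limma adjusted p = 0.136), Vim (-0.71, limma adjusted p = 0.21) and Snai1 (-0.83, limma adjusted p = 0.0661) did not pass either. In both clones, Cdh1, Cdh2, Epcam and Cldn6 were higher and Vim, Snai1, Snai2 and Zeb1 lower in E294K than in FH-Prdm14 cells. The count of 2 rose to 5 without both C3 libraries and to 7 when only the E294K and FH-Prdm14 libraries were fitted. Against Prdm14-/- cells, 4 of the 9 genes were called, beside 32.9% of all genes. Cldn6 fell by 1.28 (SE 0.22, limma adjusted p = 0.0017), Snai1 fell by 1.08 (SE 0.29, limma adjusted p = 0.0158), Epcam fell by 0.71 (SE 0.19, limma adjusted p = 0.0157), and Vim rose by 1.09 (SE 0.38, limma adjusted p = 0.046). Of these 4, Cldn6 was called without any 1 library. Without Prdm14-/- G6, E294K F10 or E294K G6, the limma adjusted p of Epcam was 0.0854, 0.0715 and 0.0902 and that of Snai1 was 0.169, 0.0688 and 0.0897, and that of Vim was 0.139 to 0.158 without any 1 of the 4 libraries, Prdm14-/- F10 included. Snai1 also fell short with the GC adjustment (-0.58, limma adjusted p = 0.107). Cdh1 differed by -0.22 (95% interval -0.78 to 0.35, limma adjusted p = 0.539) and Zeb1 by 0.46 (95% interval -0.07 to 1.00, limma adjusted p = 0.164) between E294K and knockout. Cdh2 was 0.69 higher than in the knockout (95% interval 0.08 to 1.30, limma adjusted p = 0.0746, or 0.0284 without both C3 libraries).

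**Figure D2:**
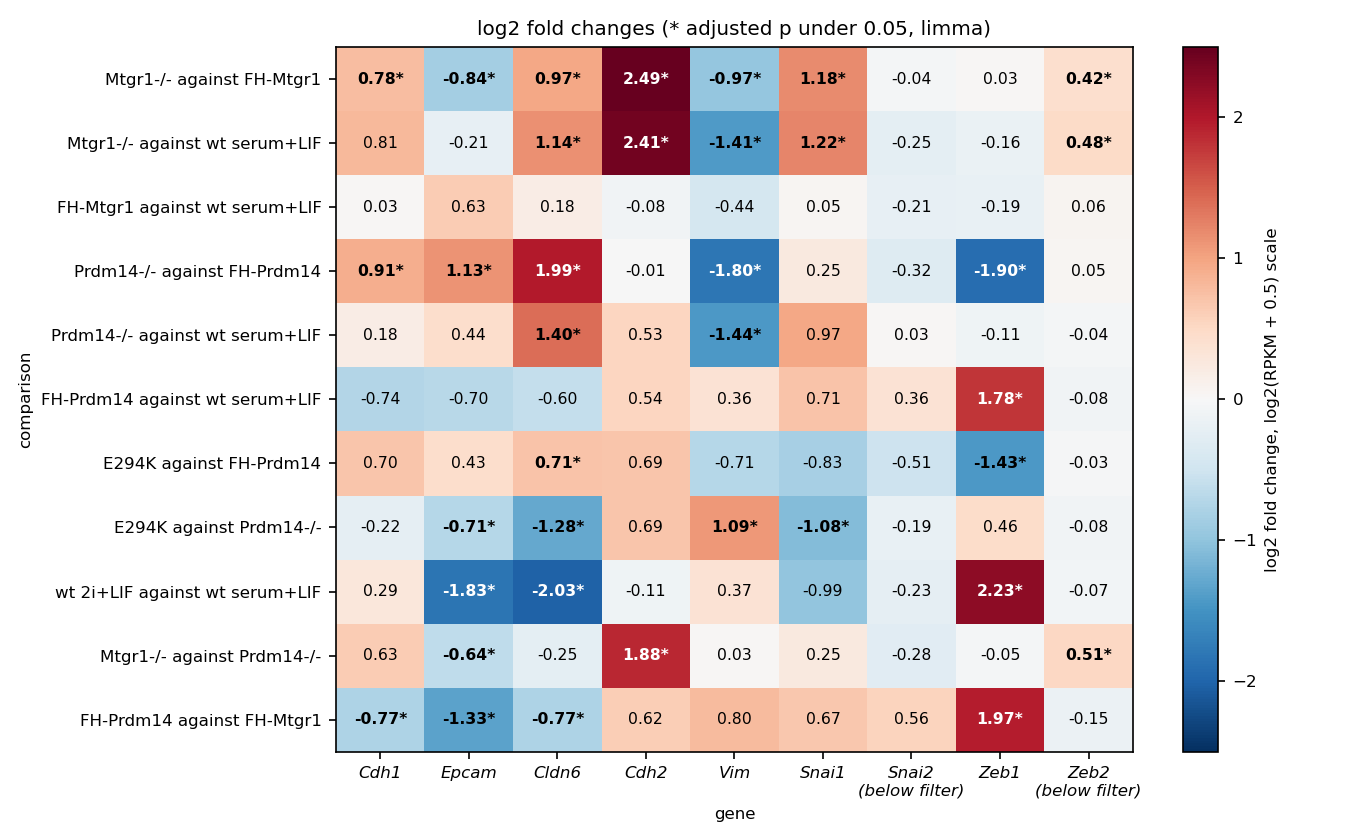
log2 fold change of each gene (columns) in 11 comparisons (rows), on the log2(RPKM + 0.5) scale; red is higher and blue lower in the first-named condition, and an asterisk marks a limma adjusted p below 0.05. Cldn6 is 0.97 to 1.99 higher in both knockouts against rescue or wt, whereas Epcam is -0.84 in Mtgr1-/- and 1.13 in Prdm14-/- cells against their rescue lines.

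Whether the 2 knockouts change these genes to the same extent was tested as the difference between their changes, each against its own rescue lines. It was significant for 4 of the 9 genes, beside 31.4% of all genes. Cdh2 differed by 2.50 (SE 0.36, limma adjusted p = 0.000531), as its change against the rescue lines was 2.49 in Mtgr1-/- and -0.01 in Prdm14-/- cells. Epcam differed by -1.97 (SE 0.25, limma adjusted p = 0.000254), as it fell in Mtgr1-/- and rose in Prdm14-/- cells. Zeb1 differed by 1.93 (SE 0.32, limma adjusted p = 0.0011) and Cldn6 by -1.02 (SE 0.28, limma adjusted p = 0.0171, but 0.0546 without Prdm14-/- G6 and 0.0715 without FH-Prdm14 F10). For Cdh1, the difference was -0.13 (95% interval -0.86 to 0.59, limma adjusted p = 0.792), for Vim 0.83 (95% interval -0.24 to 1.91, limma adjusted p = 0.218) and for Snai1 0.92 (95% interval 0.10 to 1.74, limma adjusted p = 0.0818, or 0.0317 without Prdm14-/- G6).

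This difference contains that between the rescue lines. FH-Prdm14 against FH-Mtgr1 cells gave 4 of the 9 genes, beside 41.6% of all genes: Zeb1 was higher by 1.97 (limma adjusted p = 6.36e-05), and Epcam was at -1.33 (limma adjusted p = 0.000152), Cdh1 at -0.77 (limma adjusted p = 0.0217) and Cldn6 at -0.77 (limma adjusted p = 0.00954, or 0.0916 with the clone as a block and 0.0809 without FH-Prdm14 F10). For Cdh1, limma's adjusted p was 0.0978 and 0.103 without FH-Prdm14 G6 and F10 and 0.068 and 0.0747 without FH-Mtgr1 A3 and C1. With the clone as a block, Vim (1.22, limma adjusted p = 0.0279) and Snai1 (0.98, limma adjusted p = 0.0343) were also called. Without FH-Mtgr1 C3, Snai1 (0.82, limma adjusted p = 0.0429) and, in the fit without the filter, Snai2 (0.77, limma adjusted p = 0.00931) were called. Of all genes called, 63.1% were higher in FH-Prdm14 cells, and 52.6% with median-of-ratios scaling, which moved the median by -0.11. Compared directly, Mtgr1-/- and Prdm14-/- cells differed in 2 of the 9 genes, beside 35.4% of all genes. Cdh2 was 1.88 higher (limma adjusted p = 0.000251) and Epcam at -0.64 (limma adjusted p = 0.0137, or 0.102 with the clone as a block, 0.0697 without Prdm14-/- G6 and 0.0637 without Prdm14-/- F10) in Mtgr1-/- cells. Cdh1 was 0.63 higher (limma adjusted p = 0.0545, or 0.0384 without Mtgr1-/- C3 and 0.0302 with the clone as a block). Snai1 differed by 0.25 (limma adjusted p = 0.49) and Cldn6 by -0.25 (limma adjusted p = 0.353), and Zeb2, in the fit without the filter, was 0.51 higher (limma adjusted p = 0.00218, but 0.255 with the clone as a block and the GC adjustment). Vim, by contrast, differed by 0.03 (95% interval -0.73 to 0.79, limma adjusted p = 0.958) and Zeb1 by -0.05 (95% interval -0.54 to 0.45, limma adjusted p = 0.896) between the knockouts.

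**Figure D3:**
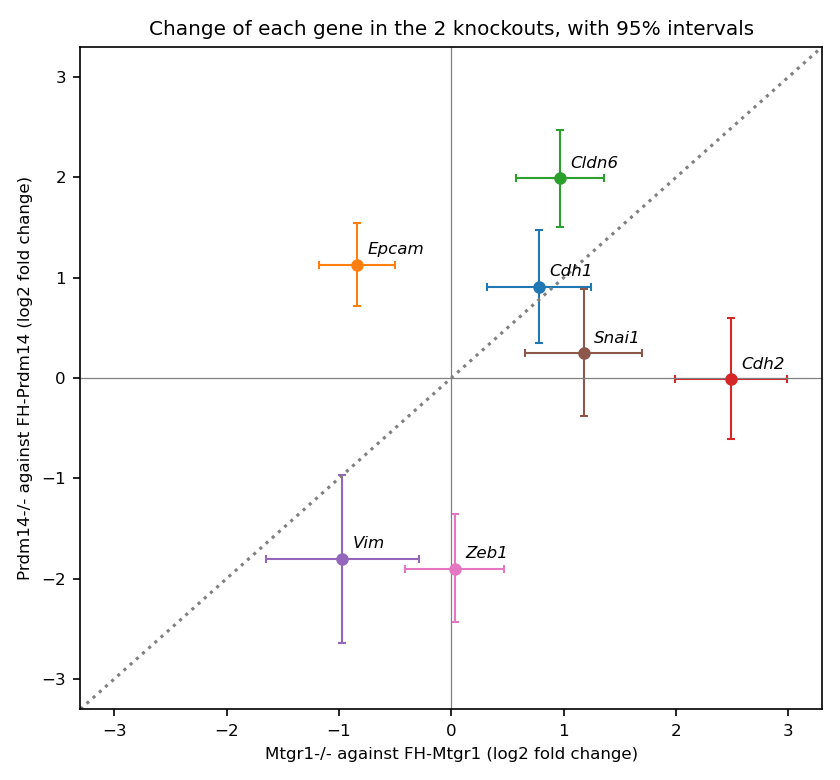
log2 fold change in Mtgr1-/- against FH-Mtgr1 (horizontal) and in Prdm14-/- against FH-Prdm14 (vertical) for the 7 genes past the filter; bars are 95% intervals and the dotted line marks equal change. Cdh1 lies close to the line at 0.78 and 0.91, Cdh2 lies far to the right at 2.49 and -0.01, and Epcam is called in both with opposite signs at -0.84 and 1.13.

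Culture medium moved part of the same genes in wild-type cells. In 2i+LIF against serum+LIF (2 libraries against 1), 3 of the 9 genes were called, beside 22.9% of all genes. Zeb1 rose by 2.23 (SE 0.30, limma adjusted p = 0.000529), Cldn6 fell by 2.03 (SE 0.27, limma adjusted p = 0.000462) and Epcam fell by 1.83 (SE 0.23, limma adjusted p = 0.00036). Cdh1 differed by 0.29 (95% interval -0.40 to 0.98, limma adjusted p = 0.541). Snai1 differed by -0.99 (limma adjusted p = 0.0655, or 0.0489 with the clone as a block and 0.0406 without the second 2i+LIF library). Vim differed by 0.37 (limma adjusted p = 0.603) and Cdh2 by -0.11 (limma adjusted p = 0.85). These calls rest on the spread of the other conditions: with the 3 wt libraries alone, 0 genes passed the threshold by limma, of 1664 at an unadjusted p below 0.05. Of all genes called, 40.6% were higher in 2i+LIF and 53.4% with median-of-ratios scaling, which moved the median by 0.12.

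The partners of these genes were read from lists chosen for the pathway. Their counts, and those of the lists of cell type markers below, stand beside the shares of all genes called. These were 26.2% higher and 26.1% lower in Mtgr1-/- against FH-Mtgr1 cells, and 11.4% higher and 13.8% lower in Prdm14-/- against FH-Prdm14 cells. None of the lists was tested as a group. Of 21 partners of adherens and tight junctions (catenins, nectins, zonula occludens and polarity proteins), all tested, 15 rose and 2 fell in Mtgr1-/- against FH-Mtgr1 cells (median 0.89, against -0.01 for all genes), and 11 rose and 0 fell in Prdm14-/- against FH-Prdm14 cells (median 0.70, against -0.09). Inadl, a scaffold of tight junctions, rose by 1.22 (limma adjusted p = 5.84e-05) and 2.29 (limma adjusted p = 1.3e-05), Marveld3, a membrane protein of tight junctions, by 0.93 (limma adjusted p = 0.0128) and 1.87 (limma adjusted p = 0.00161), and the polarity gene Pard6b by 0.89 (limma adjusted p = 0.0115) and 1.86 (limma adjusted p = 0.00117). The nectin gene Pvrl2 rose by 1.64 (limma adjusted p = 0.000237) in Prdm14-/- and differed by 0.07 (limma adjusted p = 0.764) in Mtgr1-/- cells. Of the 21, 8 rose in both knockouts. Tjp3 (-1.12) and Crb3 (-1.13) fell in Mtgr1-/- cells, and Crb3 rose in Prdm14-/- cells.

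Of 19 other claudins, 7 passed the filter. In Prdm14-/- cells, 5 of these rose and 0 fell (median 0.83), with Cldn3 at 58.7 to 93.1 RPKM in the knockout and 6.68 to 8.01 RPKM in the rescue lines (3.25, limma adjusted p = 0.000116), Cldn7 at 2.03 (limma adjusted p = 5.42e-05), Cldn4 at 1.97 (limma adjusted p = 0.000452) and Cldn9 at 0.83 (limma adjusted p = 0.0375). In Mtgr1-/- cells, 0 rose and 1 fell (median -0.30), namely Cldn4, which fell by 0.61 (limma adjusted p = 0.0447). Of 16 other classical cadherins, 7 passed the filter, and 4 rose and 0 fell in Mtgr1-/- (median 0.94), but 1 rose and 0 fell in Prdm14-/- cells (median 0.40). The 4 were Cdh5 of endothelium (1.83, limma adjusted p = 0.000271), Cdh4 (1.11, limma adjusted p = 0.00373), Cdh9 (1.04, limma adjusted p = 0.00198) and Cdh10 (0.94, limma adjusted p = 0.00109), none of which exceeded 2.53 RPKM in Mtgr1-/- cells. All 4 passed the filter only through the knockout libraries, in which they are high, so that their rise is no independent observation, and of the other 3 cadherins tested 0 rose in Mtgr1-/- cells.

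All 16 genes of the epithelial programme were tested. In Mtgr1-/- cells 11 rose and 1 fell (median 0.65), and in Prdm14-/- cells 11 rose and 3 fell (median 1.05). The membrane protease Prss8 rose by 1.25 (limma adjusted p = 6.24e-05) and 3.20 (limma adjusted p = 2.07e-06), the splicing regulator Esrp2 by 2.06 (limma adjusted p = 6.87e-05) and 1.09 (limma adjusted p = 0.03), and Tmprss2 by 1.39 (limma adjusted p = 0.00269) and 1.93 (limma adjusted p = 0.00299) in Mtgr1-/- and Prdm14-/- cells. Tmprss2 reached the filter only through the knockout libraries. The transcription factors Grhl3, Ovol1 and Ovol2 were called in opposite directions in the 2 knockouts.

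Of 18 mesenchymal effector genes, 15 were tested, of which 11 rose and 1 fell in Mtgr1-/- (median 0.98) and 8 rose and 2 fell in Prdm14-/- cells (median 0.79). Cd44, Fbn1 and S100a4 passed the filter only through the knockout libraries, in which they are high, and of the other 12 genes 8 rose and 1 fell in Mtgr1-/- and 7 rose and 2 fell in Prdm14-/- cells. The membrane-bound matrix protease Mmp14 rose by 2.50 (limma adjusted p = 8.82e-06) and 1.89 (limma adjusted p = 0.000651) and the matricellular gene Cyr61 by 1.04 (limma adjusted p = 0.00758) and 2.91 (limma adjusted p = 0.000116). The related Ctgf rose by 2.33 (limma adjusted p = 0.00585) in Prdm14-/- and differed by 0.13 (limma adjusted p = 0.816) in Mtgr1-/- cells. Tgfbi, a secreted target of TGF-beta, rose by 0.98 (limma adjusted p = 0.000915) in Mtgr1-/- and fell by 2.81 (limma adjusted p = 1.03e-05) in Prdm14-/- cells, with levels of 0.888 to 1.71 RPKM against 0.298 to 0.381 RPKM in the first and of 0.419 to 0.436 RPKM against 5.38 to 6.71 RPKM in the second. Of the 8 fibroblast markers, 4 passed the filter, and these moved apart. In Mtgr1-/- cells Col1a1 (1.72, limma adjusted p = 0.00465) and Col1a2 (1.77, limma adjusted p = 0.0016) rose, while Thy1 fell by 1.74 (limma adjusted p = 3.77e-06) and Pdgfrb fell by 0.90 (limma adjusted p = 0.00306). In Prdm14-/- cells Col1a2 rose by 1.67 (limma adjusted p = 0.0173), a gene that passed the filter only through the knockout libraries. The summed level of all 8, of which Thy1 made up 19.8 to 24.6 RPKM in FH-Mtgr1 and 5.67 to 6.73 RPKM in Mtgr1-/- cells, was 13.8 to 27.9 RPKM in Mtgr1-/- and 22.9 to 30.2 RPKM in FH-Mtgr1 cells, and 16.9 to 22.4 RPKM in Prdm14-/- and 14.0 to 16.2 RPKM in FH-Prdm14 cells, and Col3a1, Dcn, Lum and Postn were below 1 RPKM in every library. The part of these markers in the changes of Cdh2, Vim and the effector genes was not tested.

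Of 14 other transcription factors linked to the transition, 10 passed the filter, and 4 rose and 2 fell in Mtgr1-/- (median 0.21) and 2 rose and 3 fell in Prdm14-/- cells (median -0.20). Foxc2 fell by 2.02 (limma adjusted p = 4.72e-05) and Twist1 fell by 1.93 (limma adjusted p = 7.65e-05) in Mtgr1-/- cells, in which Snai1 rose. The 4 that rose there were Tcf3 (0.81), Prrx2 (0.78), Tcf4 (0.53) and Tcf12 (0.35). Foxc2 was at 0 to 0.0972 RPKM in Mtgr1-/-, at most 0.4575 RPKM in Prdm14-/- and 1.18 to 2.51 RPKM in FH-Mtgr1 cells. It thus passed the filter through libraries other than the knockouts, FH-Mtgr1 among them, so that its fall is no independent observation. In Prdm14-/- cells, Klf8 fell by 1.48 (limma adjusted p = 0.00508) and Gsc fell by 1.37 (limma adjusted p = 0.0262). Of 13 ligands, receptors and Smads of the TGF-beta pathway, which induces the transition in many epithelia, 12 were tested, and 5 rose and 0 fell in Mtgr1-/- (median 0.27) and 2 rose and 0 fell in Prdm14-/- cells (median 0.05). The ligand Tgfb2 rose by 2.41 (limma adjusted p = 2.31e-05) and 1.49 (limma adjusted p = 0.00572) in Mtgr1-/- and Prdm14-/- cells. The receptor Tgfbr2 rose by 1.75 (limma adjusted p = 8.11e-05), the Smad inhibitor Ski by 1.00 (limma adjusted p = 0.00119) and the ligand Tgfb1 by 0.97 (limma adjusted p = 0.00982) in Mtgr1-/- cells. Tgfb2 and Tgfbr2 passed the filter only through the knockout libraries, and of the other 10 genes 3 rose in Mtgr1-/- and 1 in Prdm14-/- cells.

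**Figure D4:**
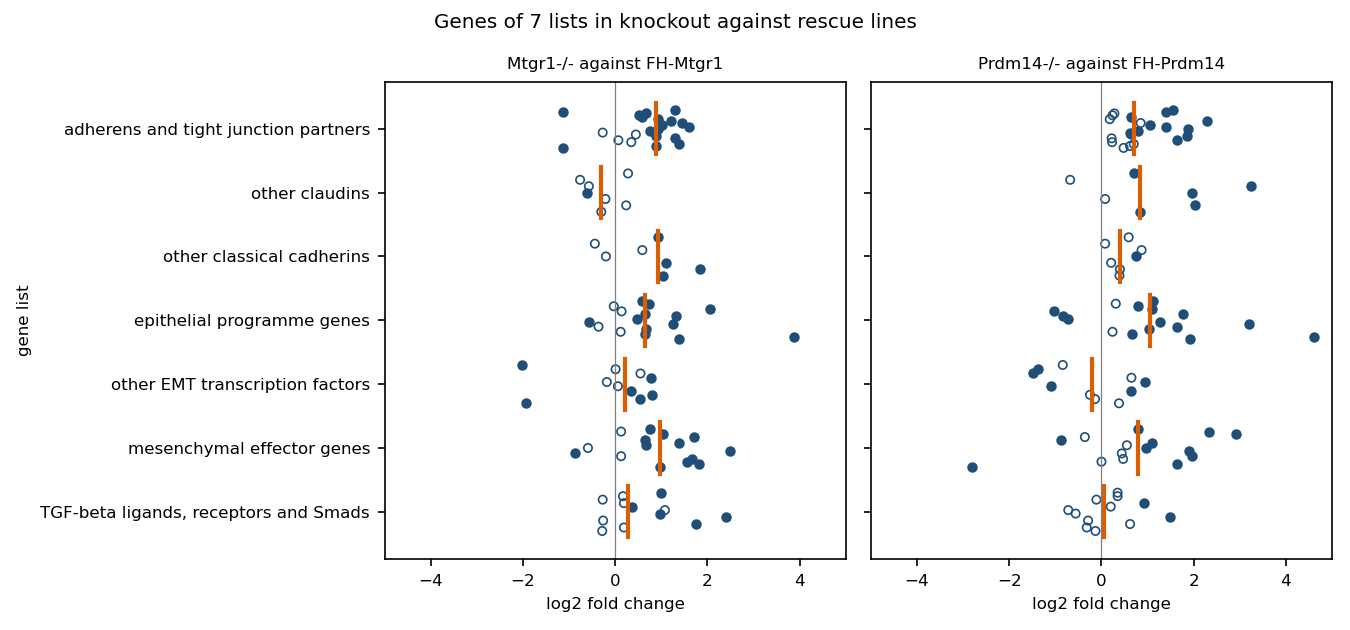
log2 fold change (horizontal axes) of the tested genes of 7 lists (rows) in Mtgr1-/- against FH-Mtgr1 (left) and Prdm14-/- against FH-Prdm14 (right); filled points have a limma adjusted p below 0.05, open points do not, and orange bars are medians over the tested genes of a list. The median of junction partners is 0.89 and 0.70, and that of other claudins is -0.30 and 0.83.

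Of 12 endoderm markers, 10 were tested, and 3 rose and 2 fell in Mtgr1-/- (median -0.03) and 6 rose and 0 fell in Prdm14-/- cells (median 1.04). Their summed level was 288 to 364 RPKM in Mtgr1-/-, 180 to 229 RPKM in FH-Mtgr1, 306 to 338 RPKM in Prdm14-/- and 211 to 220 RPKM in FH-Prdm14 cells. The 3 markers that rose in Mtgr1-/- cells were Col4a1, Col4a2 and Sparc, and the 2 that fell were Gata4 and Gata6. The higher sum in Mtgr1-/- cells was therefore not shared by Gata4 and Gata6. Sox7 and Foxa2 were below 1 RPKM in all libraries of both knockouts. The 6 pluripotency markers gave 0 rises and 2 falls in Mtgr1-/- and 0 rises and 3 falls in Prdm14-/- cells. Nanog (-0.82, limma adjusted p = 0.00757) and Dppa4 (-0.41, limma adjusted p = 0.042) fell in Mtgr1-/- cells. In Prdm14-/- cells Tdgf1 (-1.43, limma adjusted p = 0.00515), Nanog (-1.33, limma adjusted p = 0.00351) and Pou5f1 (-0.94, limma adjusted p = 0.000751) fell. The part of the endoderm and pluripotency markers in the changes of Cldn6, Epcam and Vim was not tested.

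Across the 15 libraries, the genes with the profile most like that of Cdh1 on the log2(RPKM + 0.5) scale were Itgb1 (Pearson r = 0.963), which encodes the beta1 integrin, Zmynd11 (0.933) and Clip1 (0.931). For Cdh2 they were Grwd1 (0.978), Bysl (0.967) and Aar2 (0.965), and for Vim they were Mllt6 (0.908), Slc28a1 (0.900) and Myo1f (0.892). Their places were not stable. Without the 2i+LIF libraries, Mllt6, Slc28a1 and Myo1f were at places 14, 16 and 30, and Itgb1, Zmynd11 and Clip1 at 3, 17 and 16. Grwd1, Bysl and Aar2 were then at 2, 7 and 1, but Aar2 was at place 47 by Spearman's rho. Between members, Vim and Cldn6 had r = -0.81, Zeb1 and Epcam r = -0.89 and Zeb1 and Cldn6 r = -0.87, and without the 2i+LIF libraries these were -0.83, -0.73 and -0.69. Cdh1 and Zeb1 had r = -0.40, and -0.72 without 2i+LIF. Cdh1 and Vim had r = -0.68, and -0.83 without 2i+LIF. Among the positive pairs, Snai1 and Cldn6 had r = 0.81 and Cdh1 and Cdh2 r = 0.52, and without 2i+LIF 0.59 and 0.63. The pairs named are a selection. Outside the 2i+LIF, FH-Prdm14 and E294K libraries, Zeb1 lay between 0.134 and 0.349 RPKM. As it passed the filter only through 2i+LIF and FH-Prdm14, its r values are no independent observation. These values describe libraries that share clones and conditions, and they were given no test.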

How the data were processed

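RNA-seq libraries of oligo-dT purified RNA from mESCs were single-end reads from a NextSeq or a HiSeq instrument. Which library was run on which is not given in the sources used here. Alignment by the authors was to mm9, with Tophat and RefSeq gene models, and HTSeq counted reads per gene. The authors deposited RPKM values with the gene length, and tested counts with DESeq2. ChIP-seq (11 samples) is not analysed here. RPKM times length gave whole reads for 100.0% of the values (tolerance 0.01 reads), and the totals gave the depth. HTSeq's strand setting is not given, so reads of antisense genes could be included.

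Values were taken as log2(RPKM + 0.5), for the 13477 genes that reached 1 RPKM in 2 or more libraries. Using limma 3.58.1 (R 4.3.3), the 15 libraries entered 1 model in which each condition had its own mean, moderated by eBayes with a trend, with Benjamini-Hochberg adjustment and a threshold of 0.05. The shared spread serves the wt serum+LIF condition, which has 1 library. Libraries of a condition are clones, except those of wt cells, which the labels do not tie to separate cultures, so p-values measure the spread between these libraries, part of which may be technical. No pair of libraries agreed within sampling noise. The fit was also run on simulated reads, drawn independently for each library and without shared clones. This run does not test the p-values against the spread between the real libraries.

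The 9 genes, the gene lists and the tests were chosen with earlier results of these data known. All 9 are named in each comparison or by their values. Of each list, up to 4 genes with the largest called change against a rescue line are named, and in some lists further genes. The endoderm markers are an exception, as only those called in Mtgr1-/- cells are named. For 1 list, a gene that this rule names is not reported here. Rescue lines and knockouts share clones by their labels, so the clone was used as a block in an alternative. Deviations of the same clone from its condition means correlated with r of -0.182 to 0.299. Other alternatives were no filter or one at 5 RPKM, pseudocounts of 0.1 and 1, median-of-ratios scaling, voom on the reads, an adjustment for GC content (lowess, span 0.3; known for 89.4% of genes), only the compared conditions, and leaving out each library. Leaving out both C3 libraries was added after the data were seen. Python 3.11.15 with numpy 2.4.6, pandas 2.3.3 and matplotlib 3.10.9 served for the other steps. Gene positions are from an annotation of NCBIM37 (mm9).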

Additional observations from a re-analysis of the deposited data

Results flagged for a closer look

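For 4 genes, the change on loss of Mtgr1 differed from that on loss of Prdm14, each against its own rescue lines, in a test of the difference itself (limma with Benjamini-Hochberg adjustment). Cdh2 differed by 2.50 on the log2(RPKM + 0.5) scale (adjusted p = 0.000531), as it was higher in 3 of 3 Mtgr1-/- clones and in 1 of 2 Prdm14-/- clones than in their own rescue lines. Epcam differed by -1.97 (adjusted p = 0.000254), with lower levels in 3 of 3 Mtgr1-/- clones and higher levels in 2 of 2 Prdm14-/- clones. Zeb1 differed by 1.93 (adjusted p = 0.0011), with both Prdm14-/- clones below their rescue lines and the Mtgr1-/- clones within 1.05 to 1.11 times theirs. Because Zeb1 passed the filter only through the 2i+LIF and FH-Prdm14 libraries, this is no independent observation. Cldn6 differed by -1.02 (adjusted p = 0.0171), a call that was lost without Prdm14-/- G6 (-0.99, adjusted p = 0.0546) or FH-Prdm14 F10 (-0.94, adjusted p = 0.0715), while it rose in all 5 clones.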

How the results depend on the processing

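Of 1575 values recomputed under alternatives, 1453 kept their side of the threshold, 54 fell short of it and 60 newly passed it. Counts of most similar genes moved in 8 cases, and 0 values turned their direction with a call. Changes of direction in values that were not called were not counted. Members called changed as follows, and the cause was not tested. E294K against FH-Prdm14 gave 2, but 1 with no filter or a filter of 5 RPKM, 5 without both C3 libraries, 7 with only the compared conditions (7396 genes in all, against 2633) and 1 to 1 on leaving out a library. E294K against Prdm14-/- gave 4, and 1 to 3 on leaving out a library. Prdm14-/- against wt serum+LIF gave 2, but 1 with no filter or with median-of-ratios scaling and 1 to 2 on leaving out a library. FH-Prdm14 against wt serum+LIF gave 1, but 0 with a filter of 5 RPKM (which Zeb1 does not pass), 2 with the GC adjustment or without both C3 libraries and 4 with only the compared conditions (5731 genes, against 1687). 2i+LIF against serum+LIF gave 3, but 0 with only the compared conditions, where 1 residual degree of freedom is left. Mtgr1-/- against Prdm14-/- gave 2, but 1 with a filter of 5 RPKM (which Cdh2 passes in 1 library only) and 1 to 3 on leaving out a library. FH-Prdm14 against FH-Mtgr1 gave 4, and 2 to 5 on leaving out a library. The difference between the knockouts gave 4, but 2 with a filter of 5 RPKM, which leaves out Cdh2 and Zeb1. The wt serum+LIF library could not be left out. The clone as a replicate block changed no call of the 9 genes beyond those given in the report, where Cdh1, for example, passed in Mtgr1-/- against Prdm14-/- (0.77, limma adjusted p = 0.0302). Genes called in all with the block were 0 against 369 for FH-Mtgr1 and 914 against 1687 for FH-Prdm14 compared with wt serum+LIF, 2906 against 4776 between the knockouts and 3440 against 5600 between the rescue lines. Snai2 and Zeb2, with 1 to 57 reads, are at the limit of this depth.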
